A study of Mus musculus with 2 samples.

Results

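The 10 genes described here encode heterotrimeric G protein subunits and adenylyl cyclases, and were taken by symbol from the 27998 genes counted in islet cells of WT and ghrelin-knockout (GKO) mice. They are Gnas, Gnai1, Gnai2, Gnao1, Gnaz, Gnaq, Gna11, Gnb1, Adcy5 and Adcy6, and each symbol matched 1 gene. WT and GKO mice were littermates on a C57BL/6N background, 8 weeks of age and fed chow ad libitum. The GKO mice were homozygous for a germline deletion of the ghrelin gene, from a line kept by crossing heterozygotes, and the labels name no other allele and no agent for either genotype. Islets of 4 mice per genotype were pooled, dispersed and sorted for viable single cells, and 1 droplet library per genotype was made by 3′ counting of unique molecular identifiers (UMIs). With 1 library per genotype there was no replicate, so no test was made. The 95% intervals below cover counting error only, and genotype cannot be told apart from pool, sort or library.

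Barcodes that held 500 genes or more, and no more than 10% of UMIs from mitochondrial genes, were grouped by their leading hormone, meaning the hormone with the largest share of UMIs where that share was at least 10%. This gave 2265 insulin-led, 1048 glucagon-led, 1414 somatostatin-led and 717 Ppy-led barcodes in WT, and 872, 1397, 1003 and 669 in GKO. A further 1656 barcodes in WT and 2405 in GKO reached no such share and are called nonendocrine. Levels are given as CPM, the UMIs of a gene per 1000000 UMIs of a class without Ins1, Ins2, Gcg, Sst and Ppy, because those genes defined the classes and took 61.3% of the UMIs of insulin-led barcodes in WT. Libraries held 158067110 UMIs in WT and 103511757 UMIs in GKO, median nonhormone UMIs per barcode were 7858 to 14066 over the 10 class sums, and 18 barcodes occurred in both libraries. Ghrl gave 43069 UMIs in nonendocrine barcodes of WT and 276 in those of GKO. In WT it gave 343 UMIs in insulin-led, 75 in glucagon-led, 58 in somatostatin-led and 76 in Ppy-led barcodes. Most Ghrl UMIs of WT were thus in the nonendocrine group, and single ghrelin cells were not sought. The lists of hormone-cell markers were highest in their own class, except that Aqp3, listed for γ cells, had no UMI in Ppy-led barcodes. A second hormone reached 2% of UMIs in 797 of 1414 somatostatin-led barcodes in WT and in 503 of 1003 in GKO, and the ratios of Gnas, Gnai1, Gnaz, Gnb1 and Ric8b and the level of Nespas in this class are also given without those barcodes.

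G protein-coupled receptors act through a trimer of an α, a β and a γ subunit. Gsα stimulates adenylyl cyclase, the Gi, Go and Gz α subunits inhibit it, and Gq and G11 α subunits activate phospholipase Cβ and calcium release. In islets, incretin and glucagon receptors raise cyclic AMP through Gsα, which potentiates hormone secretion, whereas somatostatin receptors act through Gi, Go and Gz. The ghrelin receptor couples to Gq and G11 and, in some settings, to Gi and Go.

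Gnas, the gene of Gsα, lies on chromosome 2 at chr2:174284320-174346744 on the plus strand (mm10, GENCODE vM21), and has several start sites whose transcripts share their last exons. The distal start gives the neuroendocrine secretory protein transcript, the start at 174297859 gives the extra-large form of Gsα, a further start lies at exon 1A, and the proximal start gives Gsα itself. The distal, extra-large and exon 1A transcripts are imprinted. Of 14 annotated transcripts, 10 end within 300 bases of the gene's last base, and these 10 include at least 1 from each start, so 3′ UMIs of Gnas pool them. The 250 bases before 3 of these starts are shown in RefSeq's windows (GRCm38.p6, plus strand) because the counts cannot assign a Gnas UMI to any of them. CpG dinucleotides are in capitals.

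Distal start, chr2:174284070-174284319: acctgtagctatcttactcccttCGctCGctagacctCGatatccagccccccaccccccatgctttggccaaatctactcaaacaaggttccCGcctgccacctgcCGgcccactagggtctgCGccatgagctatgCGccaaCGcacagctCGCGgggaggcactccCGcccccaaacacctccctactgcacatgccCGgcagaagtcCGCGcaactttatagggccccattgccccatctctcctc
Exon 1A start, chr2:174327518-174327767: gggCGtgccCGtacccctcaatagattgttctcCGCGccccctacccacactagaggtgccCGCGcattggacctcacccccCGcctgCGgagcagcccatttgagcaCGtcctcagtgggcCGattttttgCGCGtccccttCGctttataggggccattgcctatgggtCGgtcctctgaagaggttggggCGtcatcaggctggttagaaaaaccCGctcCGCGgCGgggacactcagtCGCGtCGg
Proximal Gsα start, chr2:174329756-174330005: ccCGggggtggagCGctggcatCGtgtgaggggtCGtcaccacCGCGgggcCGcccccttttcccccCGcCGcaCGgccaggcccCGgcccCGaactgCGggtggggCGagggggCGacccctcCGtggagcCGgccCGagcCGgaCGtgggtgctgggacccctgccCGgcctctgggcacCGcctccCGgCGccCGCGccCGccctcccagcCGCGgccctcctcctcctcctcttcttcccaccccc

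The windows held 14, 22 and 29 CpG dinucleotides in that order, and the median over 32851 promoter windows was 6. The letters TATAAA, read on either strand, occurred in the distal and exon 1A windows, 31 and 104 bases before the start, and not in the proximal window, against 12.4% of all windows. The letters GGGCGG occurred on either strand in the distal window and in the proximal window but not in the exon 1A window, against 32.7% of all windows. The cyclic AMP response element TGACGTCA was in none of the 10 windows found for 7 of the members, against 1.55% of all windows. The antisense gene Nespas overlaps the distal part of Gnas on the opposite strand, and its level in somatostatin-led barcodes reached 34.3 CPM in WT and 37.9 CPM in GKO, with at most 5.82 CPM in any other class. Without second-hormone barcodes its somatostatin-led level was 37.6 CPM in WT and 41.9 in GKO.

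Over nonhormone UMIs, and with second-hormone barcodes included, Gnas separated all 5 classes, with glucagon-led barcodes highest. In glucagon-led barcodes its level was 5654 CPM in WT and 6867 in GKO. In somatostatin-led barcodes it was 4043 CPM in WT and 4382 in GKO, and in Ppy-led barcodes 2704 CPM and 3142 CPM. Insulin-led barcodes had 1796 CPM in WT and 2151 CPM in GKO, and nonendocrine barcodes 1609 CPM and 1659 CPM. The ranges of neighbouring classes over both libraries did not overlap anywhere in this order, and glucagon-led exceeded insulin-led barcodes 3.15-fold in WT (3.11 to 3.18) and 3.19-fold in GKO (3.15 to 3.23). Over all UMIs, hormones included, the Gnas level of insulin-led barcodes was 696 CPM in WT and 878 in GKO and stood below that of nonendocrine barcodes, 1571 CPM and 1627 CPM. The first 3 places were the same on both scales. Over nonhormone UMIs, the place of insulin-led barcodes above all nonendocrine ones also depended on which were taken. Without a second hormone, those with over 60% insulin UMIs had 1470 CPM in WT and 1627 in GKO, below the nonendocrine levels. Those with 25 to 60% had 1620 CPM and 1843 CPM, above them. Margins of the 95% intervals of a class level were 0.646 to 1.18% of the value for Gnas and at most 15.9% for each other member but Adcy5. Per barcode, the 10th to 90th percentiles of neighbouring classes overlapped, as the plot of Gnas per barcode shows. Those of glucagon-led barcodes (2829 to 9713 CPM) and insulin-led barcodes (957 to 2760 CPM) did not overlap in WT. In GKO these spans overlapped slightly, at 3287 to 11722 CPM and 1041 to 3328 CPM.

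**Figure D1:**
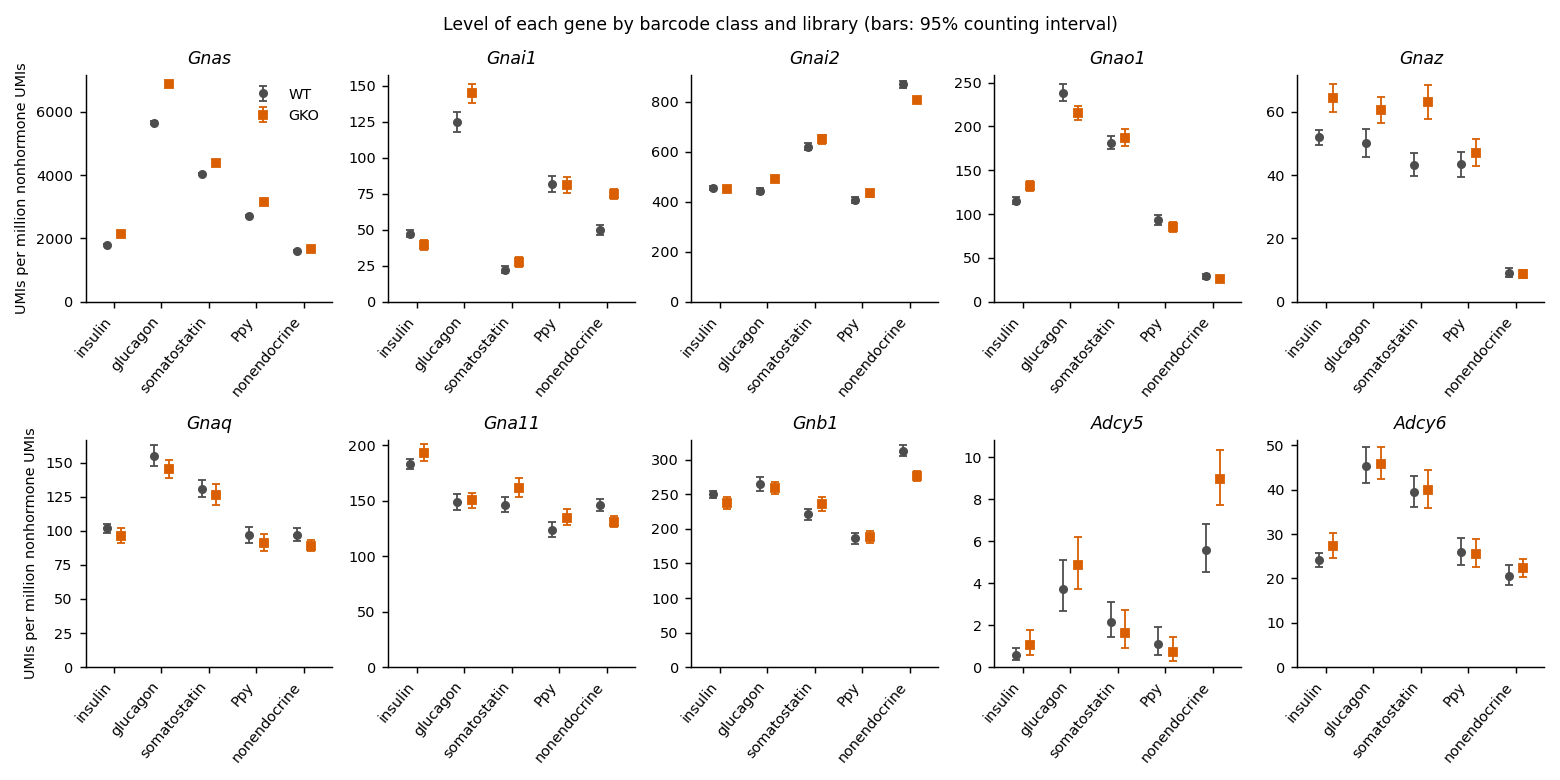
Level of each of the 10 genes (y axis, CPM over nonhormone UMIs, from 0) in the 5 barcode classes (x axis), with WT as circles, GKO as squares and 95% counting intervals as bars. Gnas, Gnai1, Gnao1, Gnaq and Adcy6 were highest in glucagon-led barcodes, Gnai2, Gnb1 and Adcy5 in nonendocrine barcodes, and the y axis differs between panels.

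**Figure D2:**
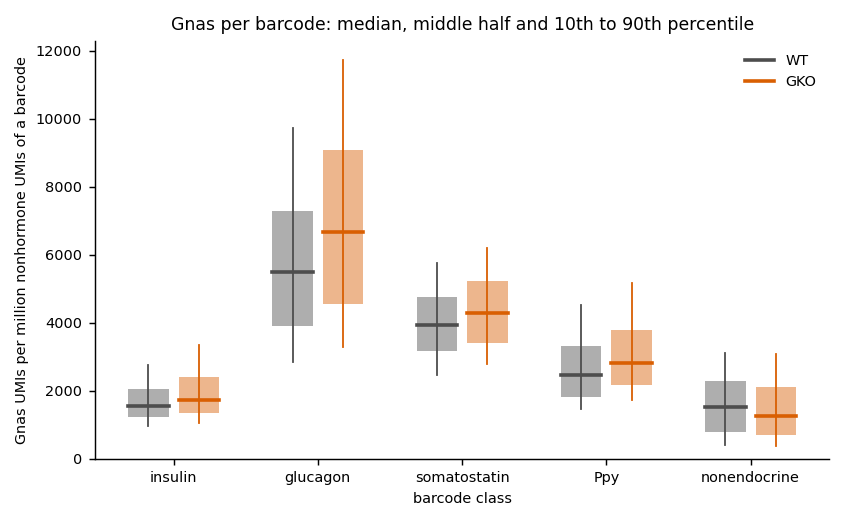
Gnas per barcode (y axis, CPM over the nonhormone UMIs of a barcode) by class and library, with the median as a thick line, the 25th to 75th percentile as a box and the 10th to 90th as a thin line. Medians in glucagon-led barcodes were 5474 in WT and 6657 in GKO, and in insulin-led barcodes 1537 and 1709.

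Gnas UMIs were found in nearly every barcode of the hormone classes, 99.9% of insulin-led and 100% of glucagon-led barcodes in WT. After each barcode was thinned to 2000 nonhormone UMIs, the expected share was 94.6% in insulin-led, 99.9% in glucagon-led and 87.5% in nonendocrine barcodes of WT, and 95.9%, 99.9% and 86.2% in GKO. Shallower barcodes were left out, 46 in WT and 109 in GKO over the 5 classes. After thinning to 1000 nonhormone UMIs the WT shares were 78.9%, 98.4% and 71.8% in the same 3 classes. The unthinned shares were near their ceiling and cannot show how classes differ.

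The Gnas level was higher in GKO than in WT in each class. The log2 ratio was 0.26 (0.24 to 0.28) in insulin-led, 0.28 (0.27 to 0.30) in glucagon-led, 0.12 (0.10 to 0.14) in somatostatin-led, 0.22 (0.19 to 0.24) in Ppy-led and 0.04 (0.02 to 0.07) in nonendocrine barcodes. Median log2 ratios over all genes tested lay between 0.00 and 0.06 in these classes. As a mark of size, a level at least 25% higher in GKO or at least 20% lower was taken, a log2 ratio of 0.32 in either direction, and all 5 ratios were under this 25% mark. In insulin-led barcodes 6.05% of the genes tested had a higher ratio than Gnas, in glucagon-led 9.50%, in Ppy-led 12.6%, in somatostatin-led 28.02% and in nonendocrine barcodes 43.3%. The nonendocrine ratio turned to -0.09 when each barcode had equal weight, and the ratios of the 4 hormone classes stayed above 0 in each of the 9 alternative settings. Over all UMIs, hormones included, the insulin-led ratio was 0.34, past the 25% mark, where the median over all genes was 0.10. Without second-hormone barcodes the insulin-led ratio was 0.17 and the somatostatin-led ratio 0.097.

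Members were counted past the 25% mark where they reached 10 CPM in either library and 200 UMIs over both. In insulin-led barcodes 9 of the 10 members passed this filter and none was past the mark in either direction, where 3.34% of all genes tested were higher and 4.30% lower in GKO. In glucagon-led barcodes 9 passed and none was past the mark, against 7.15% higher and 4.23% lower. In somatostatin-led barcodes 9 passed, 1 of them (Gnaz) was higher and none lower, against 5.01% and 5.03%. In Ppy-led barcodes 9 passed and none was past the mark, against 5.22% and 4.08%. In nonendocrine barcodes 8 passed, 1 of them (Gnai1) was higher and none lower, against 14.8% and 11.7%. Adcy5 did not pass in any class and Gnaz did not pass in nonendocrine barcodes. The shares of all genes depended on the total used. With TMM scaling, which sets the scale from the bulk of genes, they were 4.67% higher and 5.70% lower in glucagon-led, 3.86% and 6.501% in somatostatin-led and 3.79% and 5.51% in Ppy-led barcodes, and over all UMIs they were 5.49% and 2.64% in insulin-led barcodes, where Gnas and Gnaz were the members past the mark. The median log2 ratio of the members that passed was 0.08, 0.02, 0.09, 0.01 and -0.11 in the order of classes used here, and that of all genes 0.02, 0.06, 0.03, 0.03 and 0.00. The counts of members past the mark were thus near those of genes at large.

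**Figure D3:**
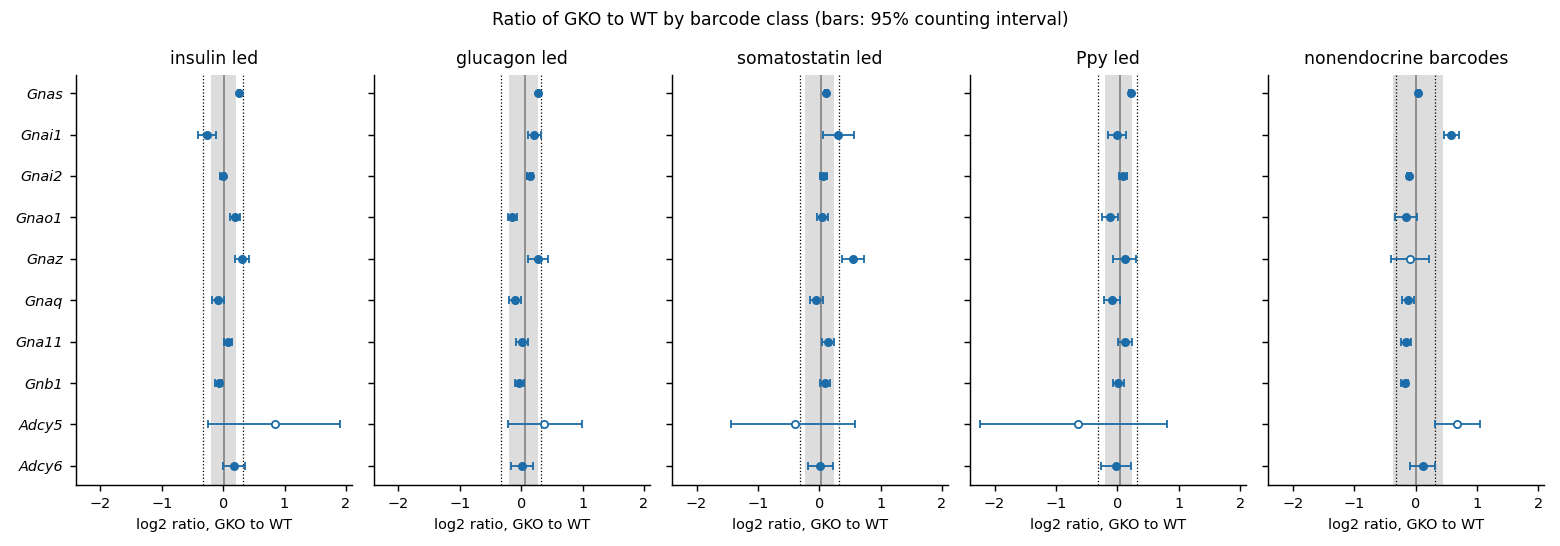
Log2 ratio of GKO to WT (x axis) for each gene (y axis) in the 5 classes, with 95% counting intervals as bars. Grey bands span the 10th to 90th percentile of all genes tested with their median as a line, dotted lines mark 0.32 in either direction, and open circles are genes under the filter on low values. Gnaz in somatostatin-led barcodes (0.55) and Gnai1 in nonendocrine barcodes (0.58) are the filled points beyond the dotted lines.

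Gnaz encodes the α subunit of Gz, an inhibitor of adenylyl cyclase that resists pertussis toxin. Its gene lies at chr10:74967177-75016907. In somatostatin-led barcodes its level was 43.2 CPM in WT, from 560 UMIs, and 63.0 CPM in GKO, from 540 UMIs. The log2 ratio was 0.55 (0.37 to 0.72), a 1.46-fold difference, and 0.949% of the genes tested in that class had a higher ratio. Gnaz UMIs were found in 31.7% (29.3 to 34.2) of somatostatin-led barcodes in WT and 39.6% (36.5 to 42.7) in GKO, and in 7.55% and 5.53% of nonendocrine barcodes. Median nonhormone depth was slightly lower in GKO, 7858 UMIs against 8536, and after thinning the shares were 8.11% and 11.8%. Without barcodes that held a second hormone the log2 ratio was 0.53, and with a somatostatin share of at least 20% it was 0.75. Of the marker lists, the β cell list summed to 35941 CPM in WT and 39553 CPM in GKO in this class, nearly all of it Iapp, and the acinar list to 474 CPM and 281 CPM. The activated stellate or fibroblast list summed to 5.55 CPM in WT and 48.8 CPM in GKO, of which Dcn gave 1.77 and 31.3 CPM, and the endothelial list to 144 and 75.2 CPM. The macrophage list summed to 149 and 206 CPM and the ductal list to 288 and 241 CPM. Each gene of these lists but Mafa of the β cell list in GKO had UMIs in this class. The part of any list in the Gnaz ratio was not tested.

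The other hormone classes gave smaller Gnaz ratios in the same direction, and nonendocrine barcodes a ratio of -0.09. In insulin-led barcodes Gnaz was at 51.9 CPM in WT and 64.3 CPM in GKO, a log2 ratio of 0.31 (0.19 to 0.43) just under the 25% mark. Glucagon-led barcodes had 50.0 and 60.5 CPM, a log2 ratio of 0.27 (0.11 to 0.44), and Ppy-led barcodes 43.4 and 47.0 CPM, 0.12 (-0.07 to 0.30). Nonendocrine barcodes had 9.20 and 8.64 CPM. Levels of neighbouring hormone classes overlapped over the libraries, although Ppy-led barcodes lay below insulin-led and glucagon-led ones on this total. The order of the 4 hormone classes changed with the total used, whereas nonendocrine barcodes were below each of them in every setting.

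Gnao1 (chr8:93809966-93969388), the gene of Goα that couples receptors to calcium channels and to secretion, shared this endocrine pattern. Its level was 238 CPM in WT and 216 in GKO in glucagon-led barcodes, 181 and 187 CPM in somatostatin-led, 116 and 132 CPM in insulin-led, 92.9 and 85.2 CPM in Ppy-led and 28.9 and 26.0 CPM in nonendocrine barcodes. Neighbouring classes did not overlap in this order. Over all UMIs, however, insulin-led barcodes had 44.8 CPM in WT and 53.9 in GKO, below Ppy-led barcodes with 58.7 and 54.6 CPM. Over nonhormone UMIs the glucagon-led mean was 8.27 times the nonendocrine mean. Without nonendocrine barcodes that held 2% or more hormone UMIs in total, the nonendocrine level was 4.78 CPM in WT and 8.04 in GKO. The log2 ratio of GKO to WT was 0.19 (0.11 to 0.27) in insulin-led and -0.15 (-0.22 to -0.07) in glucagon-led barcodes. The difference of these log2 ratios was 0.34 and was not tested. Over 18 profiles, made of the 4 hormone classes and 5 nonendocrine marker classes in both libraries, Gnao1 and Gnaz had the highest correlation of any pair of members (Pearson r = 0.958 of log2(CPM + 1)). Profiles of a library share depth and free RNA, so r is given as a description.

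Gnai1 and Gnai2 encode α subunits of the pertussis toxin-sensitive Gi family and were arranged very differently. Gnai1 (chr5:18265135-18360355) had 124 CPM in WT and 144 CPM in GKO in glucagon-led barcodes and 81.4 and 81.0 CPM in Ppy-led barcodes. Nonendocrine barcodes had 49.9 and 74.8 CPM, insulin-led barcodes 47.4 and 39.4 CPM, and somatostatin-led barcodes 22.2 and 27.6 CPM. The glucagon-led level was 5.61 times the somatostatin-led level in WT (4.93 to 6.39) and 5.24 times in GKO (4.58 to 6.03). Gnai1 UMIs were found in 64.4% of glucagon-led and 16.8% of somatostatin-led barcodes in WT. By contrast Gnai2 (chr9:107614125-107635367) was highest in nonendocrine barcodes, with 871 CPM in WT and 809 CPM in GKO, followed by somatostatin-led barcodes with 620 and 650 CPM. The other 3 hormone classes lay between 407 and 489 CPM, and glucagon-led and insulin-led barcodes overlapped. The log2 ratio of Gnai2 between libraries stayed between -0.11 and 0.15 over the 5 classes.

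Gnai1 was lower in GKO in insulin-led barcodes and higher in 3 other classes. The log2 ratio was -0.26 (-0.41 to -0.12) in insulin-led, 0.22 (0.11 to 0.32) in glucagon-led, 0.31 (0.06 to 0.57) in somatostatin-led, -0.01 (-0.15 to 0.13) in Ppy-led and 0.58 (0.46 to 0.71) in nonendocrine barcodes. Without barcodes holding a second hormone the insulin-led ratio was -0.47 and the somatostatin-led ratio 0.67, both then past the 25% mark. With second-hormone barcodes included, the difference between somatostatin-led and insulin-led barcodes was 0.58 on the log2 scale and was not tested.

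Insulin-led barcodes were further divided by their insulin share. Gnas fell as the share rose. Its level in WT was 2278 CPM in 53 barcodes with 10 to 25% insulin UMIs, 2106 CPM in 942 barcodes with 25 to 60% and 1487 CPM in 1270 barcodes with over 60%. In GKO it was 3052, 2543 and 1642.5 CPM in 37, 388 and 447 barcodes. The log2 ratio of GKO to WT was 0.42 (0.34 to 0.51), 0.27 (0.24 to 0.30) and 0.14 (0.11 to 0.18) in that order. These ratios include barcodes with a second hormone, and no median over all genes is given beside them. Their change with insulin share was not tested. A second hormone was present in 40 of the 53 and 370 of the 942 barcodes in WT and in 27 of the 37 and 137 of the 388 in GKO, but in only 14 and 3 of those with over 60%. Without them the level at 25 to 60% was 1620.0 CPM in WT and 1843 in GKO, and at over 60% 1470 CPM and 1627 CPM. The log2 ratio of the 25 to 60% range to the range over 60% went from 0.50 to 0.14 in WT and from 0.63 to 0.18 in GKO. The fall of the Gnas level with insulin share was thus smaller once those barcodes were left out. Gnai1 did not fall at each step. It had 56.3 CPM in WT and 67.7 CPM in GKO at 10 to 25%, 64.0 CPM in WT and 56.3 CPM in GKO at 25 to 60%, and 31.7 and 18.8 CPM at over 60%. Without second-hormone barcodes, which were left out only in the upper 2 ranges, these were 69.4 and 53.6 CPM, and 31.6 and 18.8 CPM. At over 60% insulin, the log2 ratio of Gnai1 was -0.75 (-1.05 to -0.46).

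**Figure D4:**
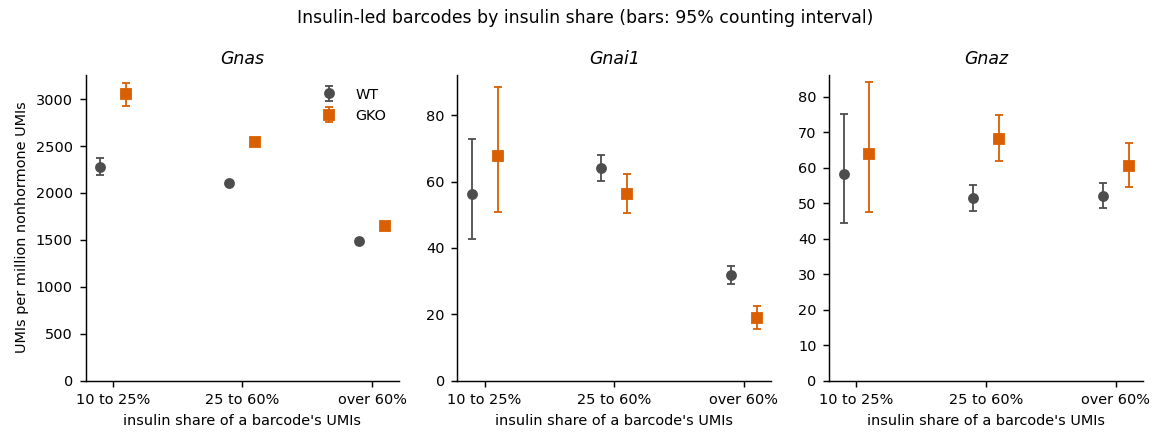
Levels of Gnas, Gnai1 and Gnaz (y axis, CPM over nonhormone UMIs, from 0) in insulin-led barcodes by the insulin share of their UMIs (x axis), with WT as circles, GKO as squares and 95% counting intervals as bars. Gnas was 1487 in WT and 1642.5 in GKO at over 60% insulin, and Gnaz was 52.1 and 60.5 there.

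Gnaq and Gna11 encode the α subunits that activate phospholipase Cβ, and Gnb1 a β subunit shared by most trimers. They differed least between classes. Gnaq (chr19:16132831-16387463) had 155 CPM in WT and 145 CPM in GKO in glucagon-led, 131 and 127 CPM in somatostatin-led and 89.1 to 102 CPM in the remaining classes, which overlapped. Over all UMIs Gnaq was lowest in insulin-led barcodes, with 39.5 CPM in WT and 39.4 in GKO. Gna11 (chr10:81528724-81545190) was highest in insulin-led barcodes, with 183 CPM in WT and 193 CPM in GKO, and lay between 124 and 161 CPM elsewhere. Over all UMIs, however, Gna11 was highest in nonendocrine barcodes, with 143 and 128 CPM. Gnb1 (chr4:155491361-155559269) had 313 CPM in WT and 277 CPM in GKO in nonendocrine barcodes and 187 and 188 CPM in Ppy-led barcodes, the lowest class. Pyy alone made up 187616 CPM of the Ppy-led total in WT, and with Iapp, Pyy and Ttr also left out of the total Gnb1 in Ppy-led barcodes was at 233 CPM in both libraries, against 247 and 263 CPM in somatostatin-led barcodes.

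Between libraries these genes moved little. The log2 ratio of Gnaq lay between -0.12 and -0.05 over the 5 classes, and its interval included 0 in insulin-led, somatostatin-led and Ppy-led barcodes. Gna11 ranged from -0.16 in nonendocrine to 0.14 in somatostatin-led barcodes. Gnb1 ranged from -0.18 in nonendocrine to 0.09 in somatostatin-led barcodes, and the difference between somatostatin-led and insulin-led barcodes (-0.07) was 0.17 and was not tested. Without second-hormone barcodes these 2 ratios were 0.10 and -0.06. Under the total over all UMIs the insulin-led ratio of Gnb1 was 0.00.

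Adcy5 and Adcy6 encode closely related cyclases that calcium inhibits. Adcy6 (chr15:98589973-98610076) was found in each class, with 45.4 CPM in WT and 45.9 CPM in GKO in glucagon-led, 39.5 and 40.0 CPM in somatostatin-led, 26.0 and 25.6 CPM in Ppy-led, 24.1 and 27.3 CPM in insulin-led and 20.7 and 22.4 CPM in nonendocrine barcodes. Ppy-led and insulin-led barcodes overlapped. Over all UMIs insulin-led barcodes were the lowest class instead, with 9.35 CPM in WT and 11.2 in GKO, against 20.2 and 21.9 CPM in nonendocrine barcodes. The log2 ratio between libraries was largest in insulin-led barcodes, 0.18, where its interval was -0.00 to 0.36, and the 4 other intervals also included 0.

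Adcy5 (chr16:35154877-35305738) was close to the limit of detection in the hormone classes. Insulin-led barcodes held 20 UMIs in WT, 0.580 CPM (0.354 to 0.895), and 14 UMIs in GKO, 1.05 CPM (0.572 to 1.75). Ppy-led barcodes held 12 and 7 UMIs, somatostatin-led barcodes 28 and 14, and glucagon-led barcodes 39 and 65, the last at 3.75 CPM (2.66 to 5.12) in WT and 4.85 CPM (3.74 to 6.18) in GKO. A count of 3 would be 0.0870 CPM in insulin-led barcodes of WT, so Adcy5 was above that floor. Its UMIs were found in 0.795% (0.472 to 1.253) of insulin-led barcodes in WT and 1.49% (0.796 to 2.54) in GKO, against 4.59% and 6.28% of nonendocrine barcodes at lower median depth. Free RNA was not removed, so the low shares in hormone classes cannot be read as expression. Intervals of the log2 ratio included 0 in each hormone class, and the margins of its level reached 82.9% of the value, so a difference of the size of the 25% mark was not detectable at this depth. In nonendocrine barcodes the level was 5.59 CPM in WT and 8.97 in GKO, a log2 ratio of 0.68 (0.32 to 1.05). As a share of the UMIs of both cyclases, Adcy5 made up 2.34% (1.44 to 3.60) in insulin-led and 7.62% (5.47 to 10.3) in glucagon-led barcodes of WT, and 21.3% (17.6 to 25.4) in nonendocrine barcodes.

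Nonendocrine barcodes were then sorted by marker lists, which needed at least 3 detected markers and a sum at least 2 times that of every other list. Endothelial markers led in 580 barcodes in WT and 438 in GKO, activated stellate or fibroblast markers in 267 and 606, quiescent stellate or pericyte markers in 161 and 317, macrophage markers in 203 and 453, and ductal markers in 67 and 93. The makeup of the nonendocrine group thus differed between libraries, and ratios within marker classes are given beside the pooled ones. The remaining lists led in fewer than 50 barcodes in at least 1 library or, in 271 and 389 barcodes, none led, and these are not described.

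**Figure D5:**
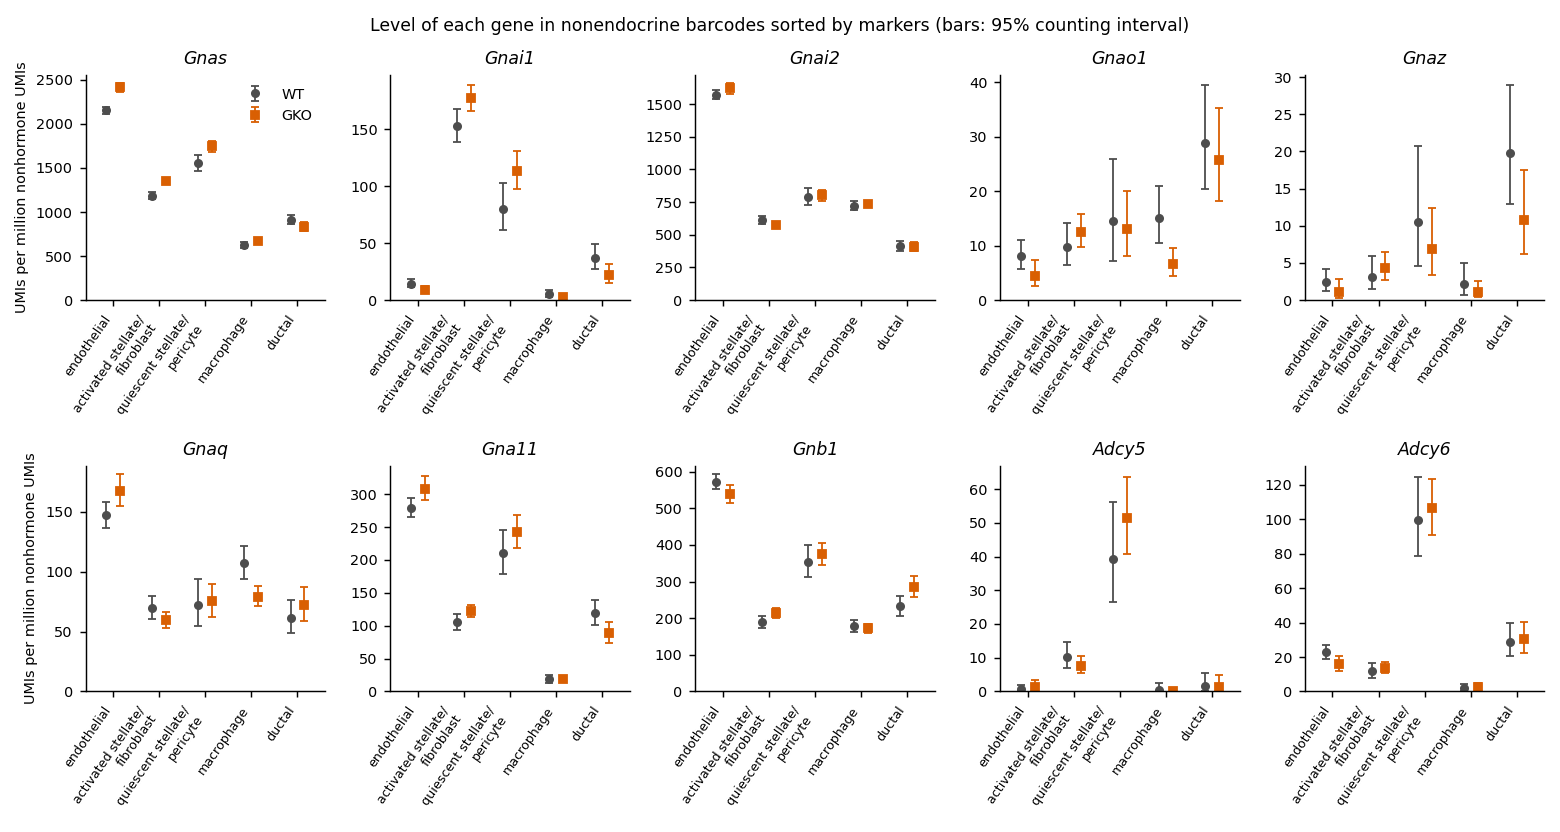
Level of each gene (y axis, CPM over nonhormone UMIs, from 0) in nonendocrine barcodes led by the marker list on the x axis, with WT as circles, GKO as squares and 95% counting intervals as bars. Gnai2 and Gnb1 were highest with endothelial markers, Gnai1 with activated stellate or fibroblast markers and both cyclases with quiescent stellate or pericyte markers.

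Levels of the subunits differed between the marker classes. Barcodes led by endothelial markers had the most Gnas (2156 CPM in WT and 2415 CPM in GKO), Gnai2 (1573 and 1620 CPM), Gna11 (279 and 309 CPM) and Gnb1 (573 and 538 CPM) of these 5 classes, but only 14.5 and 8.72 CPM of Gnai1. Barcodes led by activated stellate or fibroblast markers had the most Gnai1, 152 CPM in WT and 177 CPM in GKO. In barcodes led by macrophage markers Gna11 was at 18.5 CPM in both libraries, against 88.4 CPM or more in the other 4 classes, whereas Gnaq was at 107 CPM in WT and 79.1 CPM in GKO. Macrophage-led barcodes also had the least Gnas, 623 and 669 CPM, and 1 and 0 UMIs of Adcy5.

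Barcodes led by quiescent stellate or pericyte markers stood out for the cyclases. Adcy5 was at 39.4 CPM (26.6 to 56.2) in WT and 51.3 CPM (40.8 to 63.7) in GKO, and the next class, activated stellate or fibroblast, had 10.2 CPM (6.82 to 14.6) and 7.65 CPM (5.49 to 10.4). Adcy6 was at 99.8 CPM in WT and 106 CPM in GKO there, and at most 30.4 CPM in the other 4 marker classes. These 161 and 317 barcodes gave 31.2% of the nonendocrine Adcy5 UMIs in WT and 42.7% in GKO. Within them the log2 ratio of Adcy5 was 0.38 (-0.24 to 1.04), and within activated stellate or fibroblast barcodes it was -0.41 (-1.13 to 0.33), against 0.68 in the pooled group.

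The pooled Gnai1 ratio of 0.58 was likewise larger than those within its main sources. Activated stellate or fibroblast barcodes gave 50.6% of nonendocrine Gnai1 UMIs in WT and 59.2% in GKO, and the ratio within them was 0.21 (0.05 to 0.38). Quiescent stellate or pericyte barcodes had a ratio of 0.50 (0.07 to 0.94), and endothelial barcodes -0.74 (-1.40 to -0.11) from 72 and 31 UMIs. For Gnas the ratio within marker classes was 0.16 in endothelial, 0.19 in activated stellate or fibroblast, 0.16 in quiescent stellate or pericyte, 0.10 in macrophage and -0.13 in ductal barcodes, and none of these 5 intervals included 0. The Gnas ratio was above 0 in 4 of 5 marker classes as well as in the 4 hormone classes, with ductal barcodes the exception. No median over all genes is given within the marker classes. A shift of all genes in a marker class therefore cannot be told apart from these ratios.

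The genes whose pattern over the 18 profiles was most like a member were sought among 10719 genes with at least 20 CPM in a profile. For Gnas they were Fam131a (r = 0.947), Trmt13 (0.945) and Ubqln2 (0.935), and 12 genes had r of at least 0.9. For Gnaz they were Fam229b (0.982), Camk2n2 (0.981) and Atp6v0e2 (0.979), and 358 genes reached 0.9. Gnaz thus followed a pattern that many genes share, and Gnas a rarer one. For Adcy5 they were Gpc6 (0.965), Ppp1r12b (0.953) and Crtc3 (0.9498), and for Adcy6 Unc45a (0.951), Pcnp (0.948) and Esf1 (0.944).

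Other genes of the pathway, namely further α, β and γ subunits, cyclases, the chaperones Ric8a and Ric8b, protein kinase A subunits, Epac proteins, phospholipase Cβ and cyclic AMP-responsive factors, were counted from a list of 46, of which 45 were found. In insulin-led barcodes 23 passed the filter on low values, in glucagon-led 24, in somatostatin-led 24 and in Ppy-led 23. The only gene past the 25% mark in these classes was Ric8b, a chaperone for Gsα folding, which was at 42.2 CPM in WT and 30.8 CPM in GKO in somatostatin-led barcodes, a log2 ratio of -0.45 (-0.67 to -0.24), and -0.55 without second-hormone barcodes. Against the 5.03% of genes that were lower in that class, 1 of 24 is near the background. In nonendocrine barcodes 31 passed, 4 were higher and 4 lower in GKO, near the 14.8% and 11.7% of all genes tested there, in the group whose makeup differed between libraries. The median log2 ratio of the list was 0.03, 0.10, 0.11, 0.02 and 0.09 in the order of classes used above.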

How the data were processed

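Per the labels and their processing notes, the authors made gene-by-barcode UMI tables in Cell Ranger 5.0.1 against mm10, and the deposited values are these raw counts for barcodes called as cells, 7792 in WT and 7289 in GKO. Strand settings are not given in the sources used here. Free RNA was not removed and no doublet caller was run, since barcodes with a second hormone at 2% or more were left out as an alternative. Barcodes were filtered and classed as the report describes, UMIs were summed per class and library, and levels were scaled to the nonhormone total. Intervals of a ratio are exact conditional binomial intervals, those of a share Clopper-Pearson, all at 95%, and cover counting error only. Shares were also computed as the exact expectation after thinning to 2000 UMIs. The ratio and its interval were tested on simulated sums drawn with counting error alone. That check could not cover spread between barcodes or animals. The named genes are the 10 members, pathway genes past the 25% mark in a hormone class, and the 3 genes most like Gnas, Gnaz, Adcy5 and Adcy6. Members, lists and rules were chosen with earlier results of these data known. Positions come from GENCODE vM21 and promoter windows from RefSeq (GRCm38.p6). Python 3.11.15, numpy 2.4.6, scipy 1.17.1 and pandas 2.3.3 were used, and edgeR 4.0.16 (R 4.3.3) for scaling factors of an alternative.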

Additional observations from a re-analysis of the deposited data

Results flagged for a closer look

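For 3 members the ratio of GKO to WT had opposite directions in 2 hormone classes, with counting intervals that did not reach 0 on either side. None of these differences was tested, since each genotype had 1 library. The share of all genes with such a pattern was not computed, so the count shows nothing particular to the members. Gnai1 differed by 0.58 on the log2 scale between somatostatin-led barcodes (0.31) and insulin-led barcodes (-0.26). Gnao1 differed by 0.34 between insulin-led (0.19) and glucagon-led barcodes (-0.15). Gnb1 differed by 0.17 between somatostatin-led (0.09) and insulin-led barcodes (-0.07). Its insulin-led direction did not hold in every setting, with a log2 ratio of 0.00 over all UMIs.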

How the results depend on the processing

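No paired analysis was possible because each genotype has 1 library, and for the same reason no replicate could be left out. The Gnas log2 ratio in insulin-led barcodes (0.26) was 0.22 without the barcode filter, 0.17 without second-hormone barcodes, 0.34 over all UMIs, 0.24 with TMM scaling and 0.23 with equal weight of barcodes. In glucagon-led barcodes (0.28) it was 0.24 without second-hormone barcodes, 0.25 with ribosomal and mitochondrial genes also out of the total and 0.23 with TMM. In somatostatin-led barcodes (0.12) it was 0.081 with TMM, and in Ppy-led barcodes (0.22) 0.24 without second-hormone barcodes, 0.18 with TMM and 0.19 with equal weight. In nonendocrine barcodes (0.04) it was 0.10 without the barcode filter and -0.085 with equal weight. Other alternatives stayed within the counting interval.

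Members counted as higher in GKO in insulin-led barcodes (0) were 1 without the filter on low genes and 2 over all UMIs, and in glucagon-led barcodes (0) 1 without that filter and 1 with the leading hormone at 20% or more. In somatostatin-led barcodes (1) they were 0 at a fold of 1.5, and 2 without the barcode filter and without second-hormone barcodes. In nonendocrine barcodes (1) they were 0 at a fold of 1.5, and 2 without the filter on low genes, without the barcode filter, with ribosomal and mitochondrial genes out of the total and with equal weight. Members counted as lower were 0 in the report, and 1 without the filter on low genes in somatostatin-led and Ppy-led barcodes and 1 without second-hormone barcodes in insulin-led barcodes. Other pathway genes counted as higher (0) were 3 over all UMIs and 1 with equal weight in insulin-led barcodes, 2 in glucagon-led and 1 in somatostatin-led barcodes with the leading hormone at 20% or more, and 1 in somatostatin-led and Ppy-led barcodes without the barcode filter. Those counted as lower in glucagon-led barcodes (0) were 1 without the barcode filter and without second-hormone barcodes. Of all genes in the same class, these settings put 17.1% higher in insulin-led and 17.5% in glucagon-led barcodes without the filter on low genes, 5.49% in insulin-led barcodes over all UMIs, 7.64% in glucagon-led barcodes with the leading hormone at 20% or more, and 5.03% and 5.20% in somatostatin-led barcodes without the barcode filter and without second-hormone barcodes. In somatostatin-led barcodes 6.23% were higher with the leading hormone at 20% or more and 0.718% at a fold of 1.5. Insulin-led barcodes had 3.64% higher with equal weight, and Ppy-led barcodes 5.12% without the barcode filter. In nonendocrine barcodes 20.6% were higher without the filter on low genes, 16.2% without the barcode filter, 14.1% with ribosomal and mitochondrial genes out of the total, 13.8% with equal weight and 7.09% at a fold of 1.5. Genes lower in GKO were 14.6% in somatostatin-led and 13.5% in Ppy-led barcodes without the filter on low genes, 5.34% in insulin-led and 4.33% in glucagon-led barcodes without second-hormone barcodes, and 4.18% in glucagon-led barcodes without the barcode filter. Over all UMIs the median log2 ratio of all genes in insulin-led barcodes was 0.10, against 0.02. The cause of these changes was not tested. The total without Iapp, Pyy and Ttr and the insulin shares without second-hormone barcodes were chosen after seeing the data. Over all UMIs the share of genes with a ratio above 0 in insulin-led barcodes was 76.5%, against 54.3% over nonhormone UMIs. Of the 97 thinned shares that changed with the depth of thinning, each rests on the number of UMIs drawn by construction.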
